A study of Homo sapiens with 4 samples.

Results

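Cytosines beside 3 loci, RMRP, SNORD17 and WDR74, were examined by BisChIP-seq, in which DNA recovered with an antibody from chromatin is bisulfite-converted and sequenced, in HEK-293T cells, a human embryonic kidney cell line. A site was taken when the nearest-gene column of its table read RMRP, SNORD17 or WDR74, and this gave 7 distinct sites of 15177 in the 6 tables. RMRP had 3 sites, SNORD17 had 2 and WDR74 had 2. The loci were picked because their reads and methylation levels in the IgG libraries had already been seen, so those values are given as a description and without a test.

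There were 4 libraries, 1 for each group, and no value has a replicate error. All cells carried a vector for DNMT3A, a methyltransferase, added by the authors to raise methylation outside CpG. The GR anti-Flag library and the GR IgG control came from cells with vectors for Flag-tagged GR and DNMT3A, with dexamethasone, which moves GR into the nucleus, added to 4 nM at 24 h of transfection. The BMAL1-CLOCK anti-Flag library and the BMAL1-CLOCK IgG control came from cells with vectors for Flag-tagged BMAL1, CLOCK and DNMT3A, without dexamethasone. The IgG libraries were made with a non-specific antibody in place of anti-Flag, so they measure the background of the immunoprecipitation. The GR libraries were tabulated for GRE half-sites and the BMAL1-CLOCK libraries for E-boxes, and only cytosines with at least 4 reads were kept. The deposited tables held 51518 reads over 8107 sites for GR anti-Flag and 14143 reads over 2715 sites for its IgG control. For BMAL1-CLOCK they held 21042 reads over 4353 sites with anti-Flag and 164 reads over 2 sites with IgG.

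RMRP encodes the RNA component of RNase MRP, a ribonucleoprotein enzyme that takes part in the processing of ribosomal RNA precursors. SNORD17 encodes a box C/D small nucleolar RNA, of the class that guides 2′-O-methylation of ribosomal RNA. In RefSeq (GRCh38.p14) it lies inside SNX5, a sorting nexin gene. WDR74 encodes a WD-repeat protein of ribosome biogenesis. In RefSeq (GRCh38.p14) the gene contains RNU2-2, a gene for the U2 small nuclear RNA of the spliceosome, and the 2 genes share the end that is the 5′ end of WDR74, which lies on the minus strand. WDR74 is thus a protein-coding label with a structured RNA gene at its start. Bisulfite converts unmethylated cytosine, and a read counts as methylated where the cytosine was read unconverted.

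The motifs are printed here because every value below belongs to 1 cytosine of them, shown as the capital letter. The GRE half-site was read as agaaCa on one strand and as tgttCt on the other, and these are called AGAACA and TGTTCT. The E-box was read as Cacgtg, called CACGTG, and is its own complement. None of the 3 measured cytosines is in a CpG.

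In the IgG libraries every read at these loci was methylated. At the 5 IgG sites this came to 218 of 218 reads, with 54 of 54 in the GR control and 164 of 164, all from 1 hexamer, in the BMAL1-CLOCK control. In the GR anti-Flag library the 2 sites had 0 methylated reads of 10. The limit for these summed reads was 30.0%, taking 3 counts as the limit for a count of 0. The BMAL1-CLOCK anti-Flag table listed no site at any of the 3 loci. Intervals and limits cover counting error only, since the methods describe no molecular identifiers and some reads may be copies of 1 molecule. Where sites are summed, reads of different cytosines are counted together, and an interval or limit does not describe a level that the sites share. The IgG sites and the anti-Flag sites were different cytosines. None of these positions was listed in more than 1 library, so the antibodies cannot be compared at a single cytosine of the loci. Over all other sites the pooled level was also higher in the GR IgG control than in the GR anti-Flag library. It was 7.37% against 1.92% for AGAACA and 5.27% against 2.29% for TGTTCT, so these 2 libraries differ away from the loci too.

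**Figure D1:**
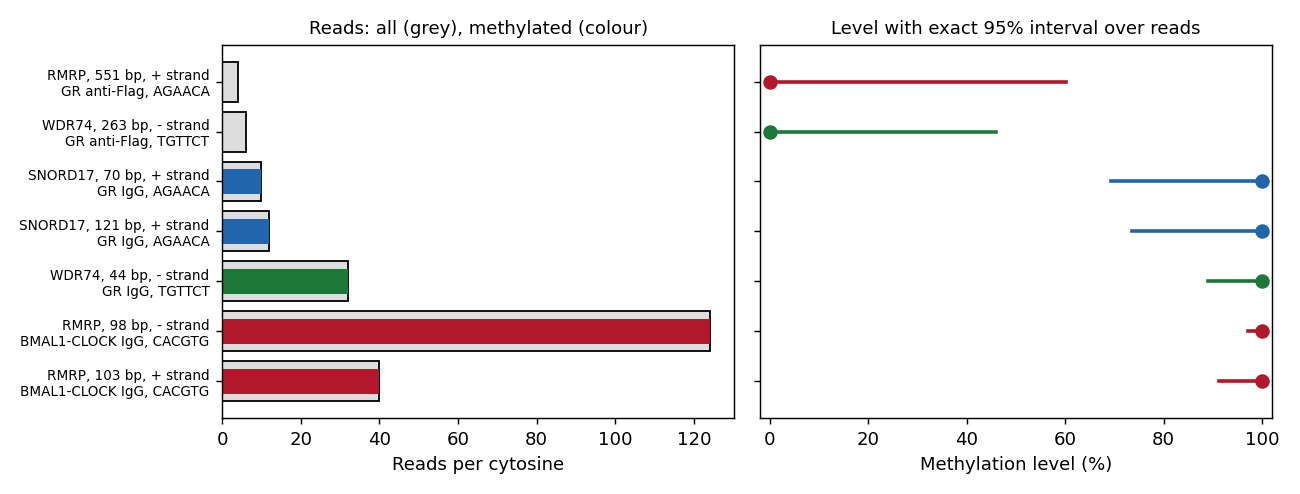
Reads per cytosine (left, grey for all reads and colour for methylated reads) and methylation level in percent (right, points with exact 95% intervals over reads) for each of the 7 sites, labelled by nearest gene, distance to the TSS, strand, library and motif. The 5 IgG sites lie at 100% with 10 to 124 reads, and the 2 GR anti-Flag sites lie at 0% with 4 and 6 reads.

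RMRP had the site with the most reads of the 7, in a library that listed no other locus. In the BMAL1-CLOCK IgG control both listed cytosines belonged to 1 CACGTG hexamer, which spans positions 35647911 to 35647916 of chromosome 9 in hg18. The cytosine on the minus strand, at position 35647916 and 98 bp from the TSS, was methylated in 124 of 124 reads (exact 95% interval 97.1 to 100%). The cytosine on the plus strand, at position 35647911 and 103 bp from the TSS, was methylated in 40 of 40 reads (interval 91.2 to 100%). The strands thus differed in reads and not in level, and as cytosines of 1 hexamer in 1 library they are not replicates. Both counts lay above the 21 reads of the most-read CACGTG site of the anti-Flag library. That site, nearest SPDYE2, had 0 of 21 reads methylated (limit 14.3%). The next 4 sites of that table by reads, nearest BC071797, FAM89A, AK057471 and DQ583756, had 1 of 19, 0 of 14, 0 of 14 and 3 of 14 reads methylated. As the reads of these tables are not normalized and the depth outside them is not known, this is no measure of enrichment.

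The remaining RMRP site was an AGAACA half-site in the GR anti-Flag library. It lay at position 35647463 of chromosome 9 on the plus strand, 551 bp from the TSS and 448 bp from the nearer cytosine of the E-box. It was methylated in 0 of 4 reads (limit 75%), and the deposited table held its row 2 times with the same counts. A depth of 4 reads is the minimum of the tables and also the median of this one, so the level at this half-site is barely constrained. All 3 RMRP sites lay on the low-coordinate side of the same TSS, at position 35648014. RMRP is 270 bp long in RefSeq. Taken as a gene of the minus strand, which is background and not from the tables, the E-box cytosines, at 98 and 103 bp, fall within that length and the half-site at 551 bp falls beyond it. This placement was not tested against an hg18 annotation.

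SNORD17 had 2 half-sites, both of the AGAACA table of the GR IgG control and both on the plus strand of chromosome 20. The cytosine at position 17891519, 70 bp from the TSS, was methylated in 10 of 10 reads (exact 95% interval 69.2 to 100%). The cytosine at position 17891468, 121 bp from the TSS, was methylated in 12 of 12 reads (interval 73.5 to 100%). They lay 51 bp apart, so reads may cover both. With a SNORD17 length of 237 bp in RefSeq and the gene taken, as background, to be on the minus strand, both distances fall within that length, which was likewise not tested in hg18. The partner cytosines on the other strand, at positions 17891516 and 17891465, were not listed in the TGTTCT table of this library, and neither GR anti-Flag table listed a site nearest SNORD17.

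WDR74 had 1 half-site in each GR library, both in the TGTTCT tables and both on the minus strand of chromosome 11, the strand of the gene. In the IgG control the cytosine at position 62365813, 44 bp from the TSS, was methylated in 32 of 32 reads (exact 95% interval 89.1 to 100%). In the GR anti-Flag library the cytosine at position 62365594, 263 bp from the TSS, was methylated in 0 of 6 reads (limit 50.0%). These 2 cytosines lay 219 bp apart, and the levels of 100% and 0% therefore differ by position as well as by antibody, which cannot be told apart here. RNU2-2 is 191 bp long in RefSeq. Counted from the 5′ end that it shares with WDR74, a distance of 44 bp falls inside that length and 263 bp outside it. This placement depends on the TSS of the deposited tables, at position 62365857 in hg18, being that shared end, which was not shown. The 2 RefSeq promoter windows of WDR74, which run from 250 bp before to 50 bp after a start, held no TGTTCT at 44 bp after their starts. Elsewhere or on the other strand 1 of the 2 windows held the half-site. Only the distance of 44 bp was checked, and by it the deposited TSS was matched to neither start. The IgG half-site was written in lower case in the deposited sequence column, as were 47.2% of sites in its table, while the other 6 sites of the 3 loci were in capitals. In genome sequence files lower case commonly marks repeats, and the tables do not explain it.

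Highly methylated sites, taken as those at a level of at least 50%, were 2.19% of the AGAACA sites and 2.11% of the TGTTCT sites of the GR IgG control. The SNORD17 sites were 2 of the 46 AGAACA sites at that level and the WDR74 site was 1 of the 13 TGTTCT sites. In the GR anti-Flag library the shares were 1.22% for AGAACA and 1.55% for TGTTCT, and neither the RMRP nor the WDR74 half-site was among them. In the BMAL1-CLOCK IgG table the share was 100%, because the table consisted of the RMRP cytosines. Whether that table holds every such site of the library is not known, so its share and the rank of its sites describe its 2 rows alone. The loci were chosen by these levels, so nothing is read from the shares.

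The SNORD17 and WDR74 sites held a large part of the full methylation in the GR IgG control. Only 4 of its 2715 sites had every read methylated (0.147%), the 3 sites described and a TGTTCT site of HIST1H1E, a linker histone gene, 285 bp from its TSS with 4 of 4 reads. Of its 46 sites with at least 10 reads, 3 were at 50% or above (6.52%), and these were the SNORD17 sites and the WDR74 site. Among the other 25 AGAACA sites at that depth the median level was 5.88% and the highest was 27.3%, at a site nearest BC071797. Among the other 18 TGTTCT sites the median was 5.76% and the highest was 10%. Of these comparison sites 15 of the 25 and 11 of the 18 were on mitochondrial or unplaced sequence. The loci were chosen with their levels known, so the distance between these values is a description only.

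**Figure D2:**
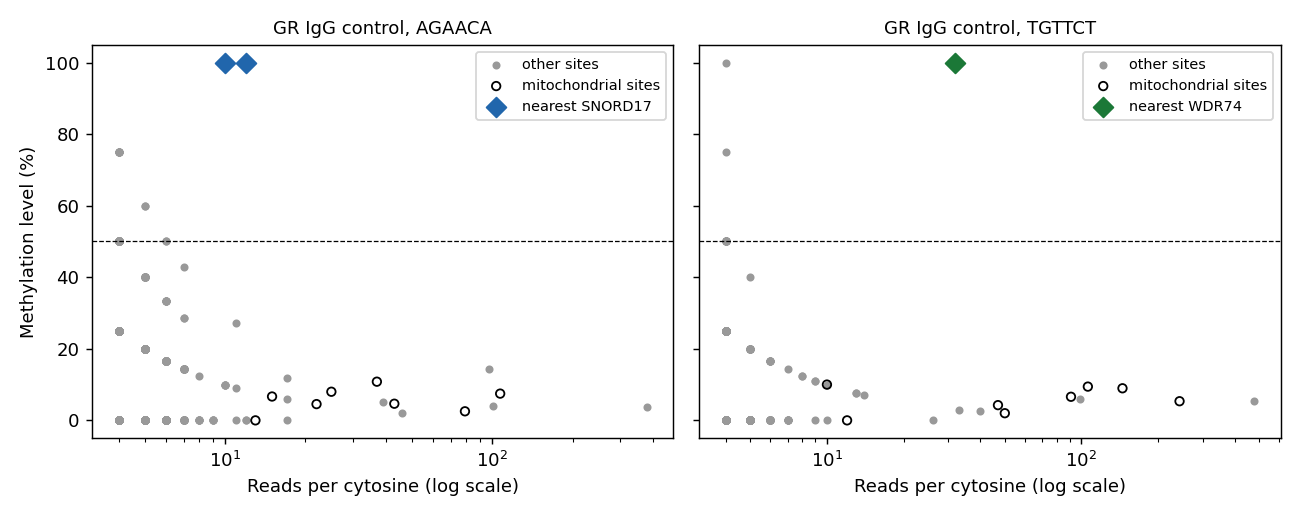
Methylation level (percent) against reads per cytosine (log scale) for every AGAACA (left) and TGTTCT (right) site of the GR IgG control, each point 1 cytosine, with mitochondrial sites as open circles, the SNORD17 and WDR74 sites as diamonds and a dashed line at 50%. The diamonds lie at 100% with 10, 12 and 32 reads, and all other sites with at least 10 reads lie at 27.3% or below.

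Compared with the most-read sites of the same tables, the members in the GR IgG control had fewer reads and a higher level. The WDR74 site was 11th of 615 TGTTCT sites by reads, at 8 times the median of 4 reads. The SNORD17 sites, with 12 and 10 reads, were 17th and 23rd of 2100 AGAACA sites. The 10 most-read other AGAACA sites were methylated in 53 of 953 reads (5.56%, interval 4.19 to 7.21%), with a range over sites from 2.17 to 14.4%. The 10 most-read other TGTTCT sites were methylated in 79 of 1331 reads (5.94%, interval 4.73 to 7.34%), with a range from 2.00 to 9.43%. Of these sites 6 and 7, respectively, were on mitochondrial or unplaced sequence. The AGAACA and TGTTCT sets are not independent, as several of their cytosines, such as those of NR3C1, are opposite strands of 1 hexamer.

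The most-read other sites included NR3C1, the gene of GR, which was also on the transfected vector. Its AGAACA cytosine was methylated in 14 of 379 reads and its TGTTCT cytosine in 26 of 477 reads in the IgG control. A mitochondrial TGTTCT site assigned to the entry named cytochrome, 21 bp from its assigned TSS, was methylated in 13 of 243 reads, and 2 assigned to HN1 in 13 of 145 and 10 of 106 reads. Mitochondrial AGAACA sites assigned to AF079515 and DQ582265 were methylated in 8 of 107 and 2 of 79 reads. Nearest GUSBL2, an AGAACA site was methylated in 4 of 101 reads and a TGTTCT site in 6 of 99, and an AGAACA site nearest FLJ43980 in 14 of 97 reads. Levels at these deeply read sites lay below those of the SNORD17 and WDR74 sites. Because those sites were chosen with their levels known, this is a description only.

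In the GR anti-Flag library the RMRP and WDR74 half-sites had no methylated read, like most sites of their tables. The RMRP half-site had as few reads as any listed AGAACA site, and 96.2% of the 1149 AGAACA sites had no methylated read. The WDR74 half-site had more reads than 94.6% of the 6958 TGTTCT sites, of which 97.1% had no methylated read. The 10 most-read other sites were methylated in 122 of 6108 reads for AGAACA (2.00%) and in 90 of 9784 reads for TGTTCT (0.920%). Of the 122, 75 were at 1 site nearest FN1, which had 76 reads. The 5 AGAACA sites with the most reads were methylated in 9 of 3324 (NR3C1), 4 of 960 (AF079515), 12 of 712 (DQ582265), 12 of 478 (HN1) and 1 of 238 reads (GUSBL2). The 5 such TGTTCT sites were methylated in 7 of 3393 (NR3C1), 51 of 1499 and 9 of 1093 (both HN1), 4 of 1366 (cytochrome) and 9 of 529 reads (DQ582265). At 4 and 6 reads, a level such as these could not be told from 0.

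Sites at 50% or above with at least 20 reads numbered 9 of the 15177 in all libraries. Of these 3 were at the loci, the 2 E-box cytosines of RMRP and the IgG half-site of WDR74. The other 6 were all in the GR anti-Flag library, with 25 to 76 reads, and lay nearest FN1 with 2 sites, EEF1A1, CR624999, SMOC1 and MAN2B1. The 2 FN1 cytosines, like the 2 of RMRP, were the 2 strands of 1 hexamer, so the 9 are cytosines and not separate hexamers. The 6 lay between 445 bp (CR624999) and 23286 bp (MAN2B1) from a TSS. The 3 sites at the loci lay 44 to 103 bp from a TSS. The loci were chosen with their reads and levels in the IgG libraries known. That 3 of the 9 are theirs was therefore fixed beforehand, and neither the count nor the distances mark a trait of the loci.

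All 5 IgG sites of the loci lay within 300 bp of a TSS, a region with few other sites. Apart from them the GR IgG control listed 13 AGAACA sites there, methylated in 16 of 216 reads (7.41%) and none at 50% or above. It also listed 6 TGTTCT sites, methylated in 20 of 352 reads (5.68%), of which the HIST1H1E site alone reached 50%. Of these sites 3 of the 13 and 3 of the 6 were on mitochondrial or unplaced sequence. Those 3 TGTTCT sites, assigned to cytochrome, HN1 and AF079515, had 13 of 243, 1 of 50 and 2 of 47 reads methylated. Mitochondrial AGAACA sites assigned to AF079515 and HN1 had 8 of 107 and 2 of 43. Both pooled levels thus came mostly from mitochondrial reads and do not describe nuclear sites near a TSS. In the GR anti-Flag library 11 AGAACA sites lay within 300 bp and none reached 50%, while 6 of 52 TGTTCT sites other than the WDR74 half-site did. The BMAL1-CLOCK anti-Flag library listed 13 CACGTG sites there, with 1 of 64 reads methylated.

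**Figure D3:**
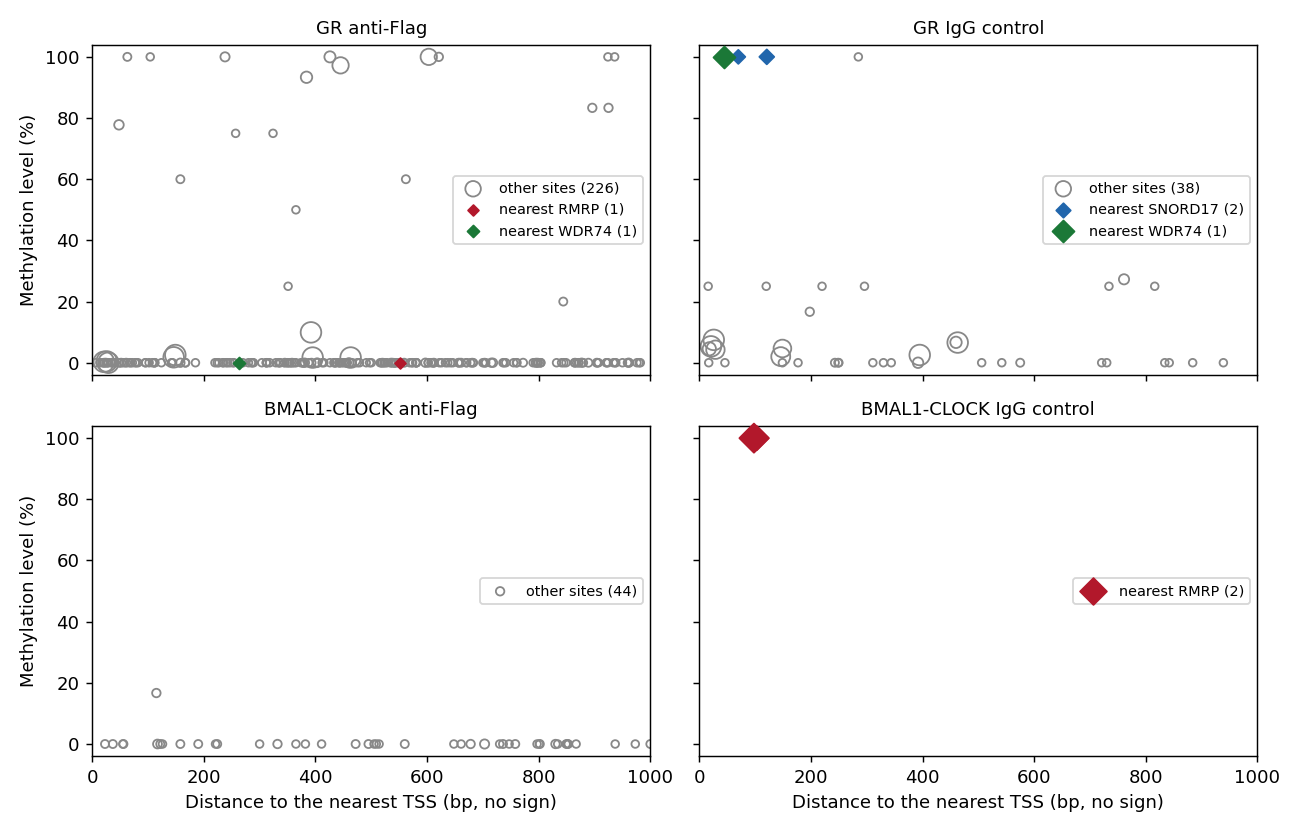
Methylation level (percent) against the distance to the nearest TSS (bp, without a sign) for sites no farther than 1 kb from a TSS, with a panel for each library and larger symbols for sites with more reads up to 60. Diamonds are the sites nearest RMRP, SNORD17 and WDR74 and circles are the 226, 38 and 44 other sites of the first 3 panels; the diamonds of the IgG panels lie at 100% and 44 to 121 bp, those of the RMRP E-box overlap, and those of the GR anti-Flag panel lie at 0%.

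Other sites listed around the loci had few reads, and few of those were methylated. Within 300 kb of the RMRP sites 5 further sites were listed over all libraries, with 4 or 5 reads each, and 1 of 21 reads was methylated, at a site nearest TESK1. Within 300 kb of the SNORD17 sites 4 further sites had 1 of 19 reads methylated. The methylated read was at a site nearest CSRP2BP, with 1 of 5 reads in the GR IgG control. Within 300 kb of the WDR74 sites 2 further sites had 0 of 8 reads methylated (limit 37.5%). None of these 11 sites reached 50%. For those without a methylated read, at 4 or 5 reads each, a level of up to 75% or 60% cannot be told from 0. Of 13 listed genes beside the loci, 3 had a site, C20orf72, CSRP2BP and SNX5, none nearer than 2815 bp to a TSS.

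Sites nearest other small structured RNA genes, which were genes of small nucleolar RNAs, 1 small Cajal body RNA (SCARNA3), 1 Y RNA (RNY5) and the telomerase RNA (TERC), were listed 49 times over 28 genes, with 4 to 9 reads each. In the GR anti-Flag library 27 such sites had 12 of 111 reads methylated (10.8%) and 3 of the 27 reached 50%, where 1.5% of all sites of that library did. These were a TGTTCT site nearest SNORD73A, with 5 of 6 reads at 896 bp, one nearest SNORD21, with 3 of 4 reads at 324 bp, and one nearest SNORA77, with 4 of 4 reads at 14040 bp. In the GR IgG control 5 such sites had 1 of 23 reads methylated and none reached 50%. In the BMAL1-CLOCK anti-Flag library 17 such sites had 0 of 89 reads methylated (limit 3.37%).

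Most of these sites lay far from the RNA gene they were assigned to. Of the 49 sites 46 lay more than 1 kb from its TSS, and the median distance was 19863 bp. The 3 nearer ones, all TGTTCT sites of the GR anti-Flag library, were those of SNORD65, at 144 bp with 0 of 4 reads methylated (limit 75%), of SNORD21, at 324 bp with 3 of 4, and of SNORD73A, at 896 bp with 5 of 6. In the same library and at like depth the half-sites of WDR74, at 263 bp, and RMRP, at 551 bp, had 0 of 6 and 0 of 4. Sites within 1 kb thus held both levels at 4 to 6 reads each. The 4 with the most reads, nearest SNORD85 with 9 reads and nearest SNORA16B, SNORA35 and SNORD96B with 8 each, had no methylated read and were all in the BMAL1-CLOCK anti-Flag library, as was a site nearest SNORD114-20 with 0 of 6 reads. A nearest gene of this class therefore did not by itself place a cytosine in the RNA gene. For the 5 IgG sites of the loci, the IgG tables listed no site within 1 kb of another RNA gene of this class to set beside them.

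Of 22 listed genes for proteins that work with these RNAs, subunits of RNase MRP and RNase P, box C/D snoRNP proteins and U2 snRNP proteins, 2 had a site. SF3B1, a U2 snRNP protein, had 2 TGTTCT sites and RPP40, a subunit of RNase MRP and RNase P, had 1, all in the GR anti-Flag library. They had 0 methylated reads of 14 (limit 21.4%). The SF3B1 site nearer to the TSS, at 1105 bp, had 0 of 6 reads methylated, the same counts as the WDR74 half-site of that library.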

How the data were processed

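The members and gene lists were chosen with earlier results of these data known. Per the methods, reads of 2 runs of each library were merged by the authors and mapped to hg18 by Bismark, overlapping ends of a pair were counted once, SAMtools removed PCR duplicates, and a minimum of 4 reads was set. Tool versions are not given in the sources. Each deposited row gives 2 counts, methylated reads and total reads, neither normalized. Repeated rows were counted once, which dropped 2075 AGAACA and 344 TGTTCT rows of the GR anti-Flag tables. The motif is the one a table is named for, since the TGTTCT tables print AGAACA in the sequence column.

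Levels are the percent of methylated reads, with exact Clopper-Pearson 95% intervals, and a count of 0 is given the limit that 3 counts allow. No test was run, as each group has 1 library. The named sites were all members, the 5 most-read other sites per table, other sites at 50% or above with at least 20 reads, and those of 3 gene lists (of the RNA genes, the 5 most-read). SNORD21, SNORA77, SNORD65, HIST1H1E, BC071797, TESK1, SCARNA3, RNY5, TERC and the distances of 300 bp and 300 kb were chosen after values were seen. RefSeq (GRCh38.p14) matched all 3 genes by symbol and served for names, lengths and neighbours, and its promoter table held 1 of the 3. The coverage of the intervals was checked on simulated data, without the BMAL1-CLOCK IgG table. Sites simulated as fully methylated were always counted as high, so that part of the check could not fail. Analyses were run in Python 3.11.15 with scipy 1.17.1 and pandas 2.3.3.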

Additional observations from a re-analysis of the deposited data

How the results depend on the processing

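Of 75 recomputed values 68 kept within the counting interval (for differences, its full width) or within 1.5 times of the value given. Many of these could not move. Every member level was 0 or 100%, which fixed the pooled levels and the counts at other thresholds. No member lay beyond 100 kb of a TSS. The 68 is therefore no measure of robustness. With a minimum of 20 reads the count of AGAACA sites at 50% or above fell to 0 for SNORD17 in the GR IgG control, since its sites have 10 and 12 reads. With both strands of a hexamer joined the RMRP count in the BMAL1-CLOCK IgG control was 1. Without mitochondrial and unplaced sequence the ranks by reads in the GR IgG control were 4 for WDR74 and 7 and 10 for the SNORD17 sites at 121 and 70 bp. Among sites within 100 kb of a TSS the rank was 11 for the SNORD17 site at 121 bp and 95 for the WDR74 half-site of the GR anti-Flag library. Thresholds of 25 and 75% changed no count and, with levels of only 0 or 100%, could not. The difference between members and the most-read other sites of the GR IgG control stayed between 93.3 and 94.6 percentage points. The settings were 5 or 20 such sites, no mitochondrial sequence, no vector genes, or all others of at least 10 reads, the last added after seeing the data. The members stood at 100% throughout, a level known when they were chosen, so only the level of the other sites could move. For the GR anti-Flag members the same difference, -2 for AGAACA and -0.920 for TGTTCT, moved over 1.5 times. It lay between -4.03 and -0.665 and between -4.49 and -1.02 percentage points, respectively. These shifts were counted as unchanged only because they were smaller than the full width of the counting interval of so few reads. With a minimum of 10 reads no GR anti-Flag member was left. No paired analysis was possible because each group has 1 library and no test was run. Depth limits the GR anti-Flag members, at 4 and 6 reads, most.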
